A study of Mus musculus with 4 samples.

Results

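The Camp-high cells of the mouse fetal liver are 261 of 9960 sequenced progenitors, chosen because they carried at least 5 transcripts of the secondary granule genes Camp, Ngp and Lcn2 together and fewer than 3 of the eosinophil granule genes Prg2 and Prg3. Transcripts were counted as UMIs (unique molecular identifiers), so the choice rests on the measured values themselves. All sorted cells were Lin-Sca-cKit+Cd34+, taken from C57Bl/6J fetal livers at E14.5 and read by 10x Genomics single-cell RNA sequencing. Wild-type embryos gave libraries F and I, and Gata2-77-/- embryos, in which an enhancer of Gata2 is deleted, gave A and B. The labels name no other allele and no treatment for either genotype, and each genotype is held by 2 embryos. Of the chosen cells 199 lay in library F, 58 in I, 3 in A and 1 in B. A further 8 wild-type cells met the first condition but carried 3 or more Prg2 and Prg3 UMIs, 5 in F and 3 in I, and were left out by the rule.

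Neutrophils make their granules in waves. Primary granules, filled with myeloperoxidase and serine proteases, are made at the promyelocyte stage. Secondary granules, with antimicrobial proteins such as cathelicidin and lipocalin 2, follow at the myelocyte stage under the transcription factor C/EBP epsilon, and the cytosol fills with calprotectin. In the fetus these steps take place in the liver, which is then the main site of blood formation.

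Expression is given as CPM, the UMIs of a gene per 1000000 UMIs of the 3624 measured genes, summed over the cells of a library. Gata2 itself stood at 27.5 and 23.7 CPM in the other cells of F and I, and at 7.49 and 6.73 in those of A and B, in the direction of the labels. The chosen cells held a median of 10535 UMIs in F and 12393 in I, against 13102 and 17713 in the other cells. In all, they summed to 2196460 UMIs in F and 739570 in I. The 4 chosen cells of A and B summed to 23937 and 6490. No 2 cells held identical counts, and cell barcodes were not analysed here. Since the 5 genes of the rule fix the choice, they are described first and then left out of every count.

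Camp, the precursor of the cathelicidin peptide, carried most of the rule. It was found in 199 of 199 chosen cells of F and 56 of 58 of I, with 1 to 628 UMIs per cell (median 21) in F and 0 to 460 (median 24) in I. Lcn2, the siderophore-binding protein lipocalin 2, was found in 124 and 33 cells, with at most 76 and 11 UMIs in one cell. Ngp, neutrophilic granule protein, was found in only 49 and 8 cells, and 5 cells of F held 76.0% of its UMIs there. The level of Ngp thus stood at 425 CPM in F and 43.3 in I, a 9.83-fold difference (95% interval 6.91 to 14.45, counting error only), while Camp stood at 6221 and 4842. The sum of the 3 genes ran from 5 to 914 UMIs per wild-type cell, with a median of 23.

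Levels of the other markers differed by degrees across the edge of the rule. In F, the 55 cells with 3 or 4 UMIs, just outside it, held S100a9 at 7314 CPM and Gm5483 at 653. The 23 cells with 5 or 6, just inside, held them at 11296 and 1103, and the 176 with 7 or more at 23520 and 3625. In I, the 17 cells just outside held S100a9 at 3810 and Gm5483 at 451, the 9 just inside at 8243 and 970, and the 49 further in at 21500 and 3713. Among the other wild-type cells 583 had 1 UMI of the rule genes, 134 had 2, 50 had 3 and 23 had 4. Camp gave a UMI in 14.8% of the other cells of F and 7.66% of I. In the 31 globin-rich cells of each library (at least 100 globin UMIs per cell), which should lack Camp, the share was 3.23% in both, at median depths of 10298 and 8513 UMIs. After thinning to 4346 UMIs per cell the shares were 6.09% and 2.54% in the other cells, 0% in globin-rich cells, and 95.2% and 93.1% in the chosen cells. Without thinning, S100a8 gave a UMI in 64.5% and 38.7% of the globin-rich cells of F and I, and S100a9 in 29.0% and 9.68%. Lcn2 did so in 0% and 3.23% of them, and Ngp in none.

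The chosen cells were 6.54% of the cells of F (95% exact Clopper-Pearson interval 5.69 to 7.48%) and 2.99% of I (2.28 to 3.85%). They were 0.134% of A (0.0277 to 0.392%) and 0.0364% of B (0.000922 to 0.203%). Both wild-type shares lay above both Gata2-77-/- shares, with means of 4.77% ± 2.51 and 0.0853% ± 0.0692 (SD, n = 2 each), a 55.9-fold difference. This fold was 35.1 without F, 76.7 without I, 131 without A and 35.5 without B, since A and B rest on 3 cells and 1 cell. The exact two-sided permutation p of 0.333 is the smallest that 2 libraries against 2 can give. Cells of A and B were shallower, with medians of 7493 and 7088 UMIs in their other cells. After thinning, which left out 140 wild-type and 855 Gata2-77-/- cells, the shares were 4.78% in F, 2.15% in I, 0.0544% in A and 0.0437% in B, again with p = 0.333 in the exact permutation test. Within the wild type, the intervals of F and I did not overlap, before or after thinning.

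A second gate was set beside this one. The Cebpe gate took cells with at least 3 UMIs of Cebpe, fewer than 2 of the secondary granule genes of the rule and fewer than 3 of Prg2 and Prg3. It held 23.0% of F, 23.9% of I, 1.83% of A and 2.00% of B, a 12.2-fold difference of the genotype means. After thinning it held 10.2%, 8.96%, 0.871% and 0.524%, a 13.7-fold difference, so its size depended on depth. The median depth of its cells was 14213 UMIs in F and 19635 in I. Of the cells in either gate, the chosen cells made up 22.2% in F, 11.1% in I, 6.82% in A (3 of 44) and 1.79% in B (1 of 56). The intervals of A (1.43 to 18.7%) and B (0.0452 to 9.55%) both overlapped that of I (8.56 to 14.2%). Thinned, these shares were 31.9%, 19.3%, 5.88% (1 of 17) and 7.69% (1 of 13), each with the exact permutation p = 0.333 between genotypes. The thinned intervals of A (0.149 to 28.7%) and B (0.195 to 36.0%) overlapped those of I (14.3 to 25.3%) and F (27.6 to 36.5%). Cells with 3 or more Prg2 and Prg3 UMIs and fewer than 5 of the secondary granule genes, called the eosinophil-gene gate, numbered 44 in F, 32 in I and 0 in A and B. By the limit of 3 counts, 0 of 2235 cells in A allows a share of up to 0.134% and 0 of 2745 in B up to 0.109%, and the upper Clopper-Pearson bounds are 0.165% and 0.134%.

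**Figure D1:**
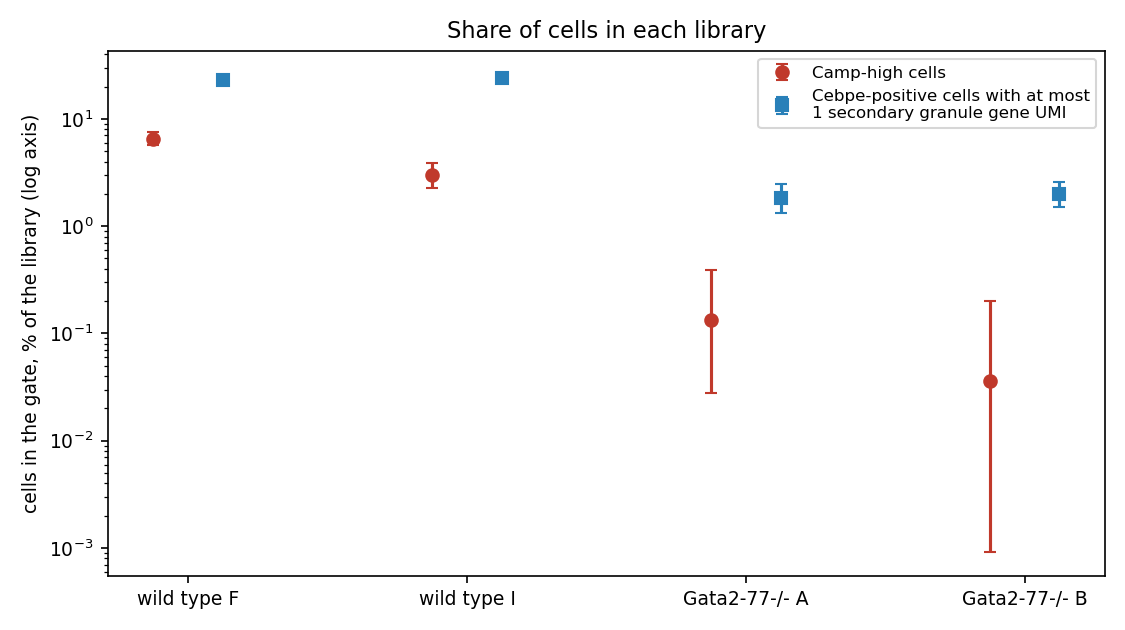
Percent of the cells of each library (log axis) that were Camp-high (circles) or in the Cebpe gate (squares), with 95% Clopper-Pearson intervals that cover counting error only. Camp-high cells were 6.54% and 2.99% of the wild-type libraries F and I and 0.134% and 0.0364% of the Gata2-77-/- libraries A and B.

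Among genes the rule did not use, stefin A and calprotectin genes led. Stefins of the A family are cytosolic inhibitors of cysteine proteases, and S100a8 and S100a9 form calprotectin, which binds zinc and calcium. The region just before the transcription start is shown for S100a9, for Fcnb, which encodes ficolin B, and for the stefin genes Stfa2l1 and Stfa3, as they were among the genes with the largest ratios. Each line gives the 250 bases before RefSeq's start, in GRCm38.p6 (mm10), written 5′ to 3′ on the gene's strand, at chr3:90695722-90695971 (- strand), chr2:28084879-28085128 (- strand), chr16:36156561-36156810 (+ strand) and chr16:36455393-36455642 (- strand). The Fcnb window ends 7 bases inside the GENCODE gene. Capitals mark each match to TTNNGNAA or its reverse complement TTNCNNAA, the consensus of C/EBP factors.
S100a9: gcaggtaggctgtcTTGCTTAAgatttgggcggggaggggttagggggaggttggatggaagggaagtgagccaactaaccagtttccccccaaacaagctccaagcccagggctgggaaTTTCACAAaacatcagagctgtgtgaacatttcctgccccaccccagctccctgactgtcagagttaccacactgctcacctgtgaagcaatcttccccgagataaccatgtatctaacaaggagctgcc
Fcnb: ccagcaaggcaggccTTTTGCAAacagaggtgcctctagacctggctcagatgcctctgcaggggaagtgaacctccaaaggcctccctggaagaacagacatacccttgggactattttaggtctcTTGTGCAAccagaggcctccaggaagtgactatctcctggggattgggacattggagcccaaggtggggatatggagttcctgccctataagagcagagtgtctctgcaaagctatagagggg
Stfa2l1: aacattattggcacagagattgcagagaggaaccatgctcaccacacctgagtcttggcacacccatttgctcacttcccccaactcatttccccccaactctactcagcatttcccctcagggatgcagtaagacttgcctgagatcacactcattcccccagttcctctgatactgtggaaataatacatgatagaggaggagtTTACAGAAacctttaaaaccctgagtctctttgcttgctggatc
Stfa3: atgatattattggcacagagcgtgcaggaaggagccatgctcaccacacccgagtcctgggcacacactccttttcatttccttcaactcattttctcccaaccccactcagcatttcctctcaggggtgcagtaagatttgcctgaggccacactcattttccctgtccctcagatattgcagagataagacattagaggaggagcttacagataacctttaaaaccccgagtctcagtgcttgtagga
The window held 2 matches in S100a9, 2 in Fcnb, 1 in Stfa2l1 and none in Stfa3. Across the panel, 2822 genes were matched to a RefSeq promoter, and 839 of them (29.7%) held a match. Among the 12 genes with the largest ratios 9 were matched to a promoter and 6 of these held a match, as did 36 of 90 genes called higher in the chosen cells (40.0%) and 58 of 239 called lower (24.3%). The first RefSeq window of each gene was used. Syne1 has 3 windows, and another of them held a match where the first did not. The windows of Syne1, Clec4a2, Pglyrp1 and the rule gene Lcn2 lie wholly inside the GENCODE gene. Those of Stfa1, Camp, S100a8 and Ngp lie partly inside it, by 197, 161, 93 and 61 bases. These shares are descriptions of letters in a window, with no test. The windows of Stfa2l1 and Stfa3 were 80.3% identical in a global alignment, and they were 80.8% and 83.5% identical to that of Stfa1, while the 63 other pairs of windows among the rule genes and these leading genes ran from 41.8% to 52.4%. The 5 stefin genes of the panel, Stfa2l1, Gm5483, Stfa1, BC100530 and Stfa3, all lie within 298.6 kb of chromosome 16, between 36156811 and 36455392 (GENCODE M21).

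The contrast of the chosen with the other cells of the same wild-type library asks which transcripts go with the secondary granule genes. It is a description, since cells chosen by transcripts differ in transcripts. A gene was called when it was at least 2-fold apart the same way in both libraries and at 20 CPM or more in the higher group. Outside the rule, 112 of 3619 genes (3.09%) were called higher and 300 (8.29%) lower. The median gene lay at a log2 ratio of -0.33, so a list near that value stands at the middle of all genes. Scaling by TMM, which moves the median gene to -0.02, turned this split around, with 192 higher and 142 lower, so that 57.5% of calls were higher against 27.2%. All 112 genes called higher were among those 192, and all 142 genes called lower by TMM were among the 300. With library I alone 478 genes were called lower.

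Calprotectin and stefin A transcripts took up a large part of the chosen cells. S100a8 and S100a9 lie close together on chromosome 3, at chr3:90668978-90670035 and chr3:90692632-90695721 (GRCm38). S100a9 stood at 22112 CPM in the chosen cells of F and 19449 of I, against 624 and 328 in the other cells, a mean log2 ratio of 5.52 ± 0.53 (SD, n = 2). S100a8 stood at 23145 and 24915 against 1512 and 1216 (4.15 ± 0.30). Together the pair made up 4.53% of UMIs in the chosen cells of F and 4.44% in I, against 0.214% and 0.154%. Single chosen cells ran from 0.292% to 17.3% in F and from 0.937% to 11.5% in I, while the other cells had medians of 0.0162% and 0.00683% and single cells as high as 10.96% and 4.68%, so single cells overlapped.

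The ratio was largest for Stfa2l1, at 122 and 96.0 CPM against 0.712 and 0.573 (log2 ratio 7.40 ± 0.02). Stfa2l1 was found in 31.2% and 39.7% of chosen cells, and in 0.809% and 0.585% of the others. Gm5483 stood at 3334 and 3288 CPM against 64.0 and 36.6, and Stfa3 at 260 and 247 against 6.65 and 3.80. BC100530 was at 7849 and 9351 against 285 and 202, and Stfa1 at 10239 and 12382 against 778 and 762. These genes belong to one family, and how any reads shared between them were counted is not given in the sources used here. Their single values are therefore uncertain. Their sum was 2.18% and 2.54% of UMIs in the chosen cells against 0.113% and 0.100% in the others, 19.2-fold and 25.2-fold. How far shared reads affect the sum was not tested. Of the 9 measured calprotectin and stefin genes 8 were called higher, S100a11 (1302 and 1391 CPM against 386 and 304) among them. The annexin-binding S100a10 was called lower, at 33.2 and 23.0 against 220 and 207.

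**Figure D2:**
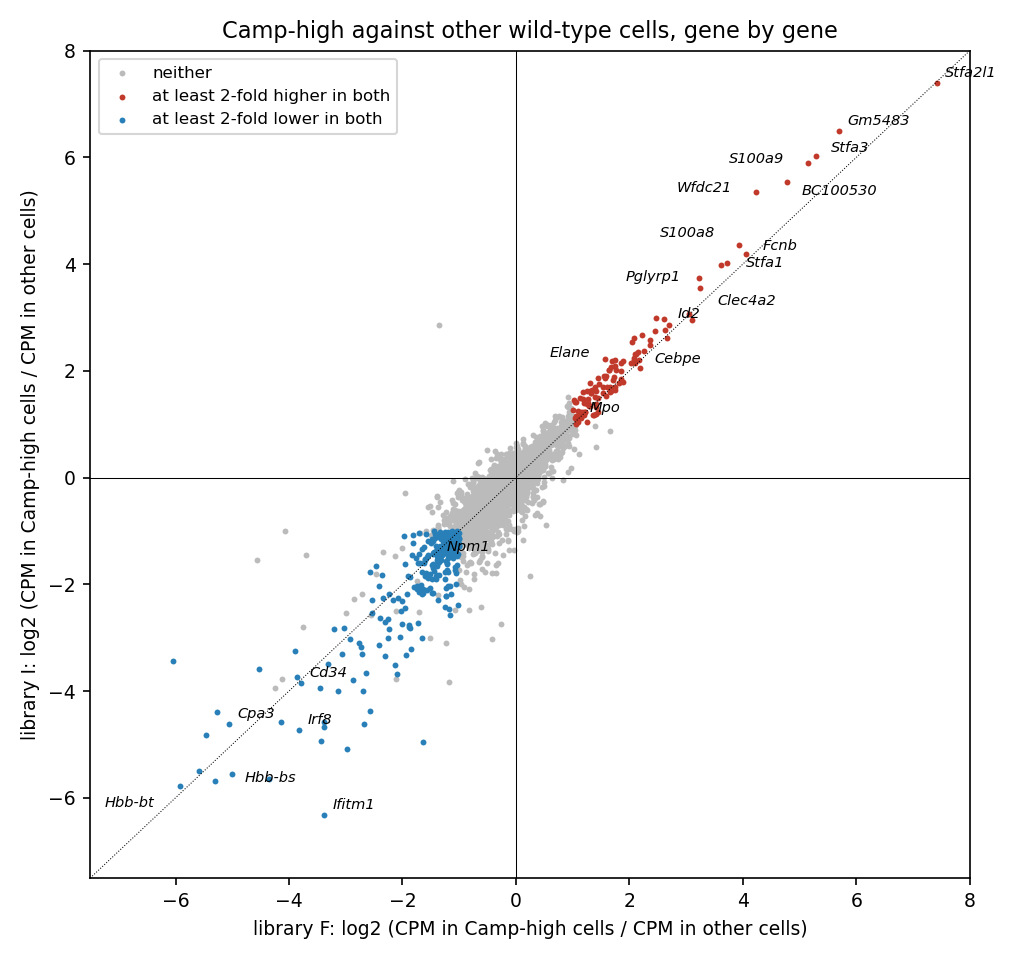
Each point is 1 gene outside the rule with UMIs in all groups, by its log2 ratio of CPM in Camp-high over other cells in library F (horizontal) and I (vertical), with the dotted line marking equal ratios. Stfa2l1, Gm5483, Stfa3 and S100a9 stand at the top right in both libraries and Hbb-bt, Hbb-bs and Cpa3 at the bottom left.

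The remaining secondary granule genes were mostly higher where Camp was. Of 19 listed genes 11 were in the panel, and of the 8 outside the rule 7 were called higher and none lower, with a median log2 ratio of 1.92 against -0.33 for all genes. Fcnb, whose product recognises microbial sugars, stood at 1519 and 955 CPM against 91.5 and 52.5 (4.12 ± 0.09). Pglyrp1, which binds bacterial peptidoglycan, was at 1351 and 1121 against 110 and 70.6, and Wfdc21, of the whey acidic protein family, at 249 and 292 against 13.2 and 7.17. Hp (haptoglobin) stood at 847 and 822 against 229 and 237, Anxa1 (annexin A1) at 350 and 421 against 97.1 and 94.3, and Tcn2, a carrier of vitamin B12, at 49.6 and 56.8 against 21.8 and 18.7. Lyz2 (lysozyme) was not called, at 1461 and 764 against 464 and 418, since its ratio missed 2-fold in I. On the TMM scale Lyz2 was called as well.

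Primary granule transcripts were still abundant in the same cells. Of 14 measured genes 7 were called higher and 1 lower, with a median log2 ratio of 1.10. Elane (neutrophil elastase) stood at 9008 and 8679 CPM against 2795 and 1916, Mpo (myeloperoxidase) at 3148 and 3261 against 1416 and 1509, and Ms4a3 at 1906 and 1997 against 631 and 531. Prss57, another serine protease of these granules, was at 478 and 484 against 102 and 76.4. Prtn3 (proteinase 3) was not called, at 8316 and 8567 against 4189 and 3865, nor was Ctsg (cathepsin G), at 2867 and 2350 against 2156 and 1799. Ctsc, the protease that activates the granule serine proteases, was called lower, at 23.7 and 41.9 against 79.8 and 119. Prtn3, Srgn and Rab44 were called higher too on the TMM scale.

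Genes of the oxidative burst and of late neutrophils were seen in part. Of the 6 subunits of the NADPH oxidase complex 4 were called higher. Ncf1 stood at 233 and 223 CPM against 69.2 and 68.3, Ncf4 at 294 and 277 against 93.5 and 90.9, Cyba at 1296 and 1243 against 627 and 571, and Cybb at 50.1 and 48.7 against 21.8 and 21.6. Of 17 listed genes of late neutrophils only 3 were in the panel. Trem3, a receptor of myeloid cells, was called higher (264 and 253 against 64.7 and 57.0).

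Among 24 regulators, 3 were called higher and 5 lower. Cebpe, which drives the secondary granule program, stood at 801 and 779 CPM against 181 and 153 (log2 ratio 2.25 ± 0.14) and gave a UMI in 198 of 199 and 58 of 58 chosen cells. Gfi1, a repressor needed for neutrophil formation, was at 50.5 and 44.6 against 16.1 and 14.2. Id2, an inhibitor of E proteins, was at 156 and 118 against 24.0 and 16.1 (2.79 ± 0.12). Irf8, which directs progenitors to monocytes and dendritic cells, was lower, at 11.4 and 5.41 against 161 and 144, or 14.2-fold and 26.7-fold. Zeb2 (39.6 and 29.7 against 120 and 107) and Tcf4 (10.0 and 8.11 against 33.0 and 34.2) were called lower as well. Id3 had 7 UMIs in the chosen cells of F and 0 in I, where 3 counts would make it at least 7.92-fold lower.

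Gata2, the gene whose enhancer is deleted in the other genotype, had 12 UMIs in the chosen cells of F and 0 in I. That is 5.46 CPM against 27.5 in the other cells of F, and at least 5.84-fold lower in I, so it was called lower. Cebpa, which acts earlier in granulocyte commitment, stood at 23.7 and 9.46 against 42.1 and 40.2 and was not called. Spi1, encoding PU.1, was at 469 and 466 against 370 and 375 and was not called either.

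The genes of both positive sort markers had low transcript levels. Cd34 stood at 14.1 and 14.9 CPM against 196 and 214 in the other cells, 13.9-fold and 14.4-fold lower. It gave a UMI in 9.05% and 15.5% of chosen cells, against 71.6% and 83.7% of other cells and 6.45% and 3.23% of globin-rich cells. Thinned, the shares were 2.65% and 6.90% of chosen and 48.0% and 55.6% of other cells. Kit stood at 27.8 and 21.6 against 42.6 and 45.7 and was not called. Surface protein, by which the cells were sorted, was not measured here.

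Genes of multipotent progenitors were lower in the chosen cells as a list. Of 16 measured 9 were called lower and none higher, with a median log2 ratio of -2.39, counting genes at 0 by their bound. Hmga2, a chromatin protein of fetal stem cells, stood at 20.03 CPM against 214 in F and at 0 UMIs in I, at least 58.9-fold lower there. Sox4 had 8 UMIs in F, 17.5-fold lower, and 0 in I, at least 15.5-fold lower. Egfl7 was at 39.6 and 33.8 against 177 and 165. Hoxa7 and Cd27 were called lower on this scale but not on the TMM scale, where 6 of 16 genes were called lower.

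Markers of other lineages give the makeup of the gate. Of 15 measured monocyte genes 5 were called lower (Irf8, Ms4a6c, Ly86, Ccr2 and Csf1r, the last not on the TMM scale) and 1 higher, Ly6c2, at 486 and 404 CPM against 213 and 145. Ms4a6c stood at 15.0 and 4.06 against 96.3 and 99.0, and Ly86 at 13 and 0 UMIs, 7.60-fold and at least 10.9-fold lower. Of 15 erythroid genes 6 were called lower and 4 had no UMI in any chosen cell. The globin genes Hba-a1, Hba-a2, Hbb-bt and Hbb-bs, pairs of near-identical copies and the 4 with the largest ratios downward, summed to 0.00651% and 0.00825% of UMIs against 0.261% and 0.404%, and in single chosen cells to at most 0.0885% and 0.0375%. By cell, the globin medians were 0.00452% and 0.00781% in the chosen and 0.00604% and 0.00774% in the other cells of F and I. Single other cells reached 79.5% and 84.6%, so the sums stood far apart while the medians lay close together. The summed erythroid list ran to 119 and 122 CPM in the chosen cells, against 2837 and 4266 in the others.

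Of 5 measured basophil and mast cell genes 1 was called lower and none higher, with a median log2 ratio of -0.08. Cpa3, the mast cell carboxypeptidase, had 2 and 1 UMIs in the chosen cells, 33.3-fold lower in F (95% interval 9.20 to 275) and 24.6-fold lower in I (4.41 to 973). Hdc, which makes histamine, stood at 63.3 and 74.4 CPM against 47.4 and 43.2 and was not called. Both measured endothelial genes were at 0 UMIs, and the measured B lymphoid genes summed to 42.8 and 31.1 CPM against 64.3 and 69.3. Of 9 listed T/NK/ILC genes only Nkg7 and Id2 were in the panel, and both were called higher. Nkg7 also stands in the primary granule list and Id2 among the regulators. T or NK genes outside the list were not analysed here. No hepatoblast gene was in the panel. The part of such cells or of free RNA in the values above was not tested.

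No division gene was called, but the libraries differed in G2/M genes. None of 20 S phase and 22 G2/M genes was called, at median log2 ratios of -0.10 and -0.20, and Cks2 stood at 606 and 498 CPM against 598 and 629. The G2/M median was 0.11 in F, where 22 of 22 genes lay above the library's median gene (-0.33), and -0.65 in I, where 18 of 22 lay below it (-0.31), so the mean of the 2 describes neither library. The S phase median was -0.15 in F and -0.11 in I. Both list medians changed sign on the TMM scale, to 0.21 and 0.11. Ribosomal protein genes had a median of -0.07 with none of 18 called. Nucleolar genes were lower, with 5 of 15 called and a median of -1.01, -0.70 on the TMM scale, where 1 of 15 was called. Npm1 (nucleophosmin) stood at 1519 and 1543 CPM against 3936 and 4333 and was called on both scales, while Ncl (nucleolin), at 626 and 675 against 1541 and 1831, was called on the first only.

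Interferon response genes and a few surface genes completed the list. Of 7 interferon response genes 4 were called lower, and the same number on the TMM scale. Ifitm3 stood at 31.4 and 9.46 CPM against 340 and 290, and Ifitm1 at 34.1 and 2.70 against 357 and 217. Ifi203 had 2 and 1 UMIs, 44.0-fold (12.1 to 363) and 28.2-fold (5.05 to 1115) lower. Ctla2a, at 3.64 and 1.35 CPM against 74.0 and 68.2, and Nrgn (2 and 1 UMIs), Fscn1 (1 and 2 UMIs) and Tsc22d1 (4 and 1 UMIs), each between 28.5 and 35.05 CPM in the other cells, were also among the 12 largest ratios downward. Of 13 receptors 3 were called higher and 1 lower, with a median log2 ratio of 0.15. The lower one was Csf1r, which was not called on the TMM scale. Clec4a2, an inhibitory lectin receptor, stood at 253 and 264 against 26.5 and 22.5, Clec12a at 750 and 738 against 176 and 167, and Csf2ra, of the GM-CSF receptor, at 106 and 98.7 against 34.97 and 34.4. Syne1, which links the nucleus to the cytoskeleton, was at 81.5 and 79.8 against 8.70 and 5.97.

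**Figure D3:**
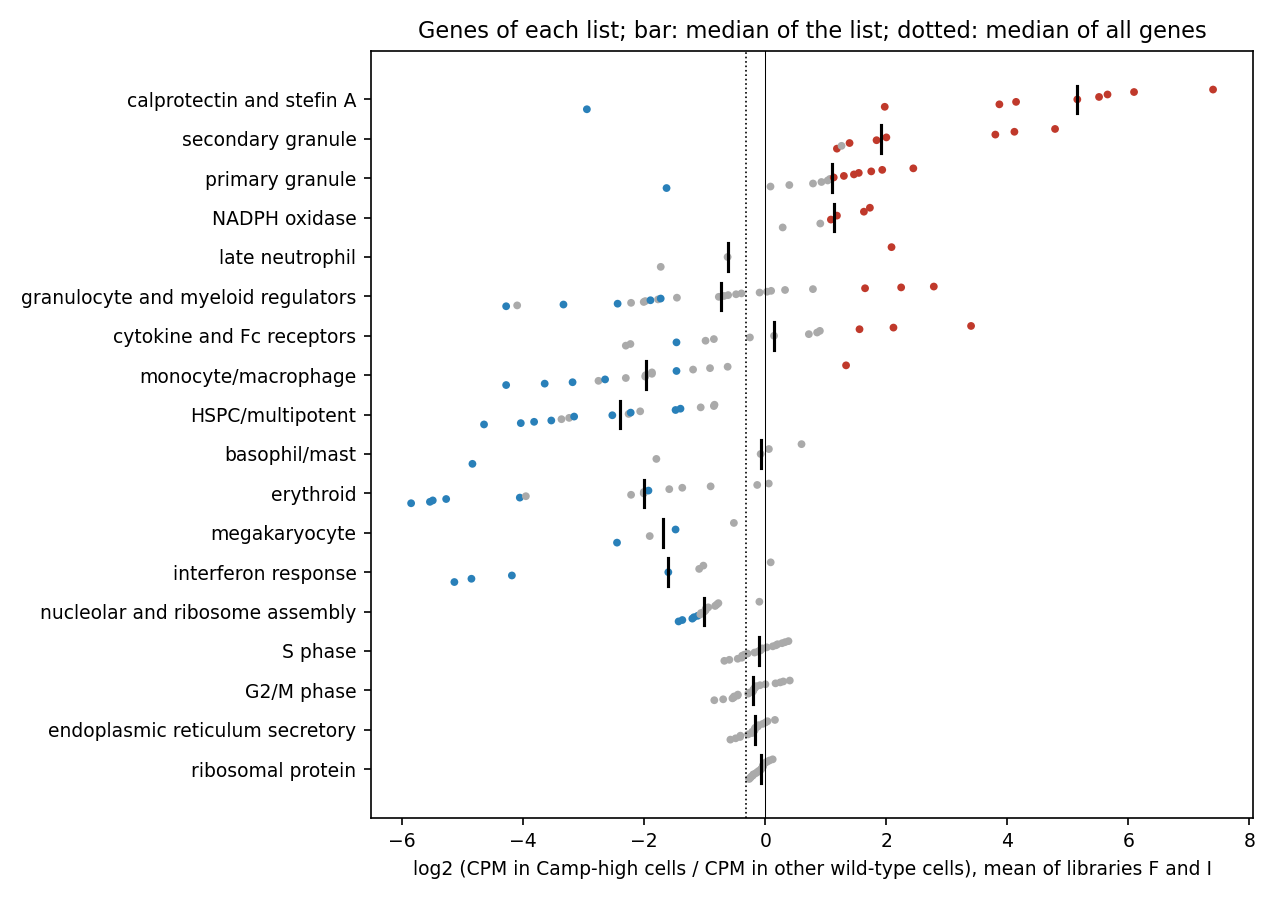
Each point is a measured gene of a list, outside the rule, by its mean log2 ratio of CPM in Camp-high over other wild-type cells of libraries F and I (red called higher, blue called lower, grey neither, genes at 0 UMIs placed at their bound). Black bars are list medians, which ran from 5.16 for calprotectin and stefin A genes to -2.39 for genes of multipotent progenitors, and the dotted line is the median of all genes.

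Set against the cells of the Cebpe gate, fewer genes stood apart. Here 53 of 3618 genes (1.46%) were called higher in the chosen cells and 124 (3.43%) lower, at a median gene of -0.26. The 5 largest ratios upward were those of Stfa2l1 (122 and 96.0 CPM against 1.19 and 0.784), Gm5483 (against 100.2 and 60.5), Stfa3 (against 11.4 and 6.61), S100a9 (against 1058 and 602) and BC100530 (against 548 and 400). Calprotectin summed to 11.1-fold and 13.7-fold more of the UMIs than in the Cebpe gate, and the stefin genes to 9.30-fold and 12.1-fold more. Of the 8 secondary granule genes outside the rule 5 were called higher, against 1 of 14 primary granule genes. Mpo stood at 3148 and 3261 against 2372 and 2604, and Ctsg at 2867 and 2350 against 4521 and 3668.

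Downward, the 5 largest ratios against the Cebpe gate were those of Cpa3, Irf8, Hmga2, Cd34 and Dlk1. Irf8 stood at 11.4 and 5.41 CPM against 88.8 and 100.7, and Cd34 at 14.1 and 14.9 against 107 and 146. Cpa3 stood at 0.911 and 1.35 (2 and 1 UMIs) against 26.4 and 36.6, Hmga2 at 20.03 and 0 against 97.9 and 108, and Dlk1, a protein of fetal progenitors, at 3.19 and 2.70 against 29.6 and 21.2. Id2 stood at 9.85 and 6.83 CPM in the Cebpe gate, against 24.0 and 16.1 in all other wild-type cells, and at 156 and 118 in the chosen cells. Without library F the count called lower was 285.

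Against the eosinophil-gene gate, 60 of 3619 genes (1.66%) were called higher and 95 (2.63%) lower, at a median gene of -0.19. That gate held 44 and 32 cells, and with either library alone 99 were higher and 190 or 210 lower. Fcnb stood at 1519 and 955 CPM against 15.6 and 66.1, S100a9 at 22112 and 19449 against 229 and 570, and Gm5483 at 3334 and 3288 against 31.2 and 93.3. Stfa3 and Stfa2l1 had 3 UMIs or fewer in each library of that gate. Cebpe was in the same range in both, at 801 and 779 against 956 and 674. Cpa3 (142 and 91.4), the transcription factor gene Ikzf2 (137 and 144) and the ribonuclease gene Rnase12 (142 and 58.3) marked the eosinophil-gene gate. They stood in the chosen cells at 0.911 and 1.35, 7.74 and 4.06, and 0 and 1.35 CPM. Ldhc (95.4 and 50.5 against 0.911 and 9.46) and Nrgn (20.8 and 29.2 against 0.911 and 1.35) completed the 5 largest ratios downward.

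**Figure D4:**
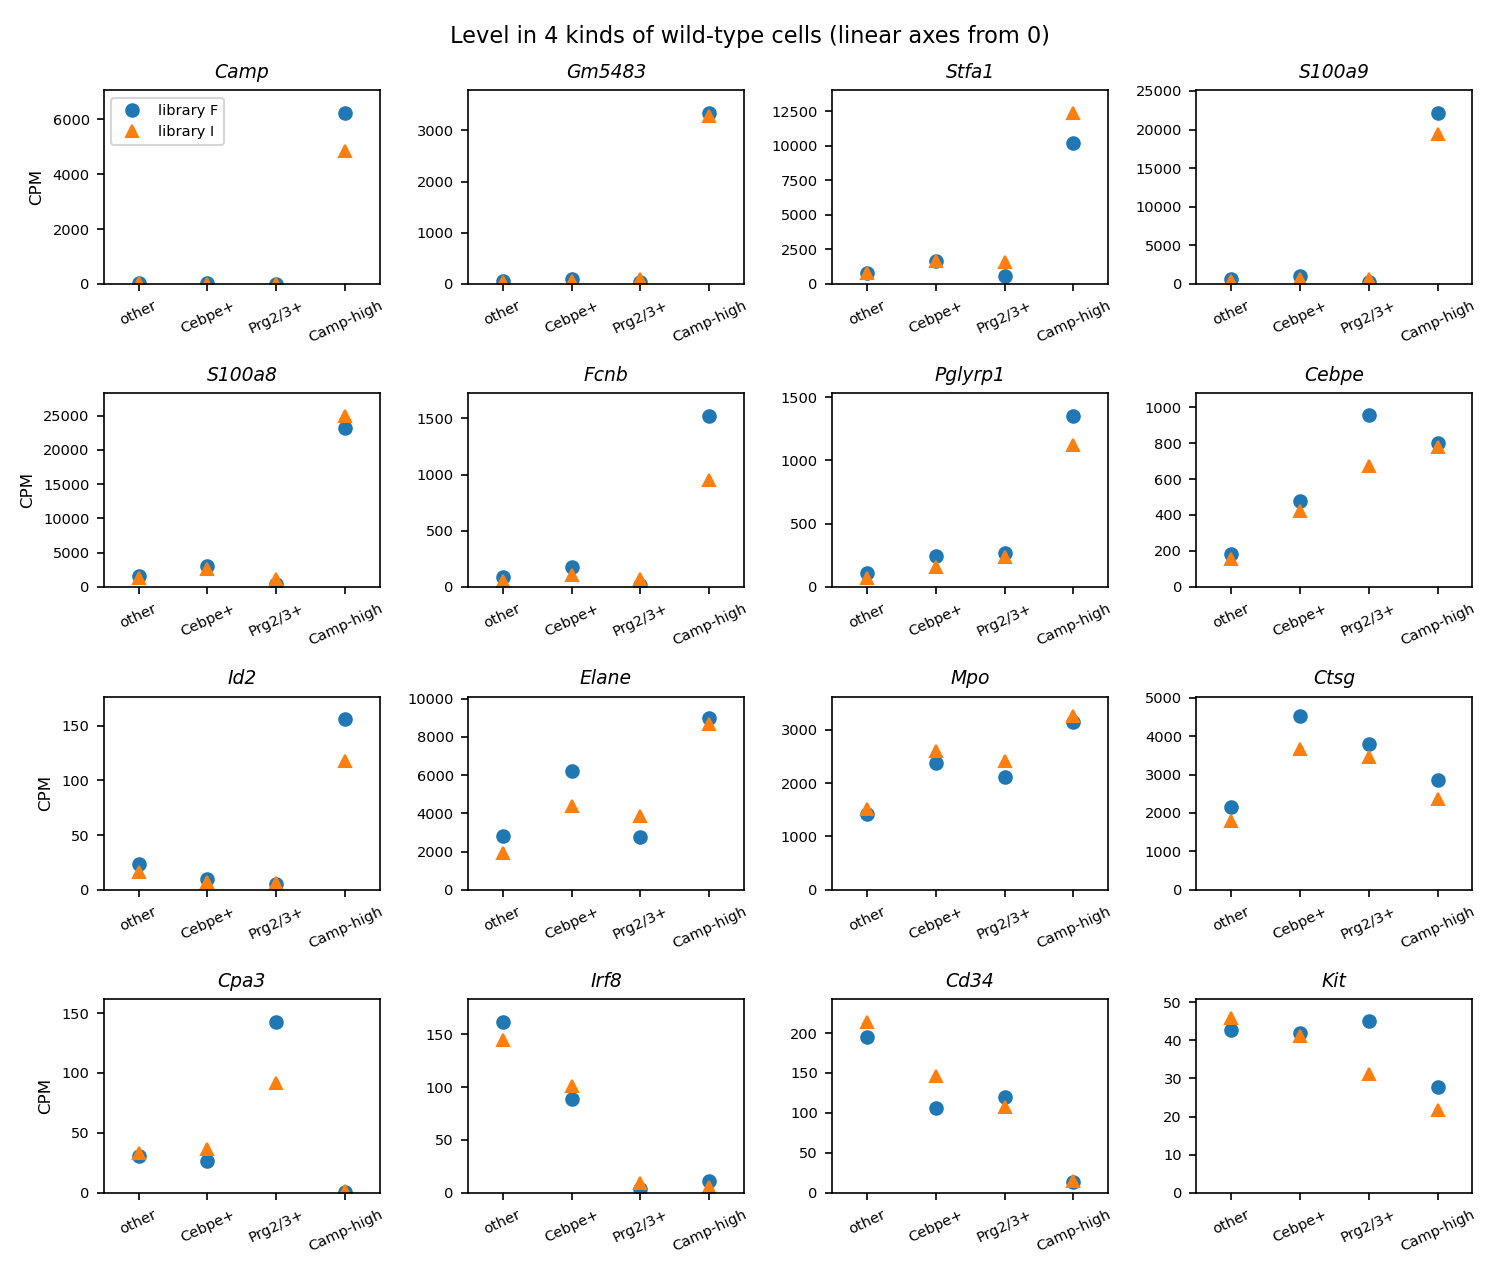
CPM of 16 genes (linear axes from 0) in other wild-type cells, the Cebpe gate (Cebpe+), the eosinophil-gene gate (Prg2/3+) and Camp-high cells, with library F as circles and I as triangles; the other cells include both gates. S100a9, Gm5483 and Id2 stood highest in Camp-high cells, Cebpe was similar in Camp-high and Prg2/3+ cells, and Cd34 and Cpa3 stood lowest in Camp-high cells.

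The chosen cells also differed among themselves. Ordered by the share of the rule genes and cut into tertiles, they ran from a median of 8 UMIs of these genes in the lowest tertile to 125 in the highest in F, and from 7 to 114 in I. Between the highest and the lowest, 13 of 3619 genes (0.359%) were called higher and 37 (1.02%) lower, with the median gene at -0.18. Median depths were 12120 and 10437 UMIs in the lowest and highest tertile of F, and 13412 and 12255 in I. With a tertile of I at about 20 cells, the counts rest on both libraries, since F alone gave 37 and 145 and I alone 106 and 353.

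Genes of the stefin cluster, Id2 and S100a9 were higher where the rule genes were higher. Stfa2l1 stood at 20.1, 28.9 and 333 CPM in the lowest, middle and highest tertile of F, and at 14.1, 47.2 and 251 in I. Stfa3 stood at 60.4, 111 and 644 and at 46.0, 159 and 595, and Gm5483 at 1135, 2503 and 6802 and at 1545, 2406 and 6415. S100a9 stood at 11192, 16806 and 40443 in F and at 12285, 16078 and 32030 in I. Id2 stood at 65.1, 95.7 and 324 in F and at 49.5, 64.3 and 259 in I, so that most of its difference lay in the highest tertile of both. Among the other 8 genes were Cdkn2d, an inhibitor of the cell cycle kinases CDK4 and CDK6 (46.2, 48.6 and 107 in F and 35.4, 30.0 and 89.5 in I), Wfdc21, Pglyrp1 and the surface genes Cd24a and Cd9. These choices beyond the 5 largest were made after their values were seen.

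Downward, the 5 largest ratios were those of Dmkn, Rangrf, Zeb2, Il21r and Txndc5, each with 2 or fewer UMIs in the highest tertile of I. Zeb2, a zinc finger repressor, stood at 54.5, 47.1 and 14.4 CPM in F and at 53.0, 21.4 and 8.95 in I. Rangrf stood at 50.9, 19.7 and 12.97 in F and at 42.4, 17.2 and 4.47 in I. Of the primary granule list only Ctsg was called, at 3981, 2737 and 1636 in F and 3154, 2586 and 1087 in I, while the list summed to 37993, 34521 and 28209 in F and to 37885, 34189 and 26644 in I. Myc (60.4, 27.3 and 28.8 in F, 84.8, 60.0 and 26.8 in I) was called lower too. No S phase, G2/M, nucleolar or ribosomal protein gene was called, with medians of -0.26, 0.21, -0.57 and -0.16. Across single cells, Spearman's rho with the share of the rule genes was 0.70 in F (199 cells) and 0.68 in I (58 cells) for Gm5483, 0.66 and 0.62 for S100a9, and -0.21 and -0.41 for Mpo. These cells share a library and each value shares its cell's depth, so the coefficients are descriptions.

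**Figure D5:**
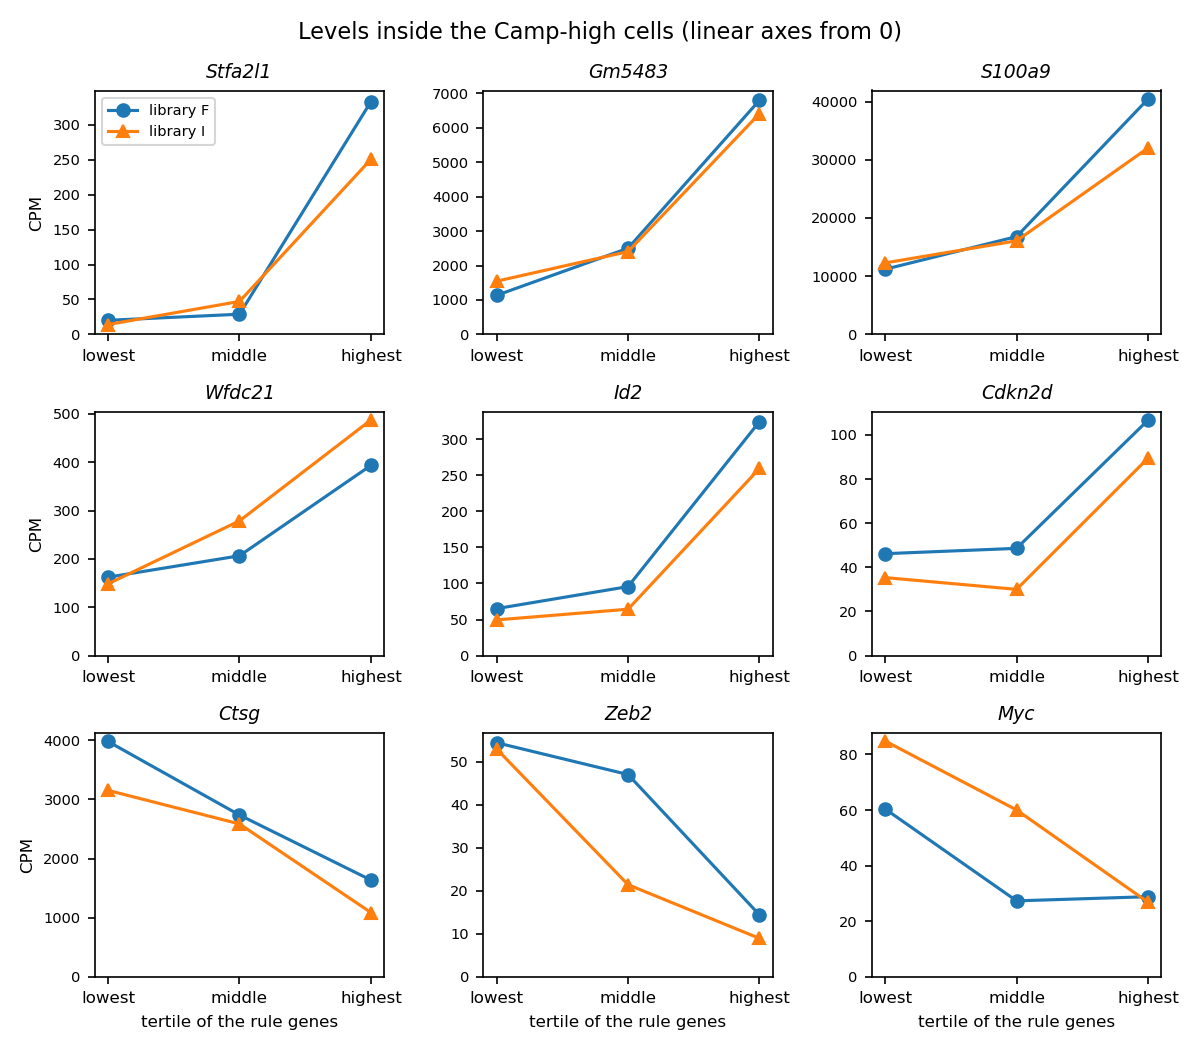
CPM (linear axes from 0) of 9 genes in the lowest, middle and highest tertile of Camp-high cells ordered by the share of Camp, Ngp and Lcn2, for libraries F (circles) and I (triangles). Stfa2l1, Gm5483, S100a9, Wfdc21, Id2 and Cdkn2d stood highest in the highest tertile, and Ctsg and Zeb2 lowest there.

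Few genes separated the chosen cells of the 2 wild-type libraries. Of 3348 genes outside the rule at 20 CPM or more in either, 28 (0.836%) were at least 2-fold apart between the chosen cells of F and I. Ifitm1 was 12.6-fold higher in F (95% interval 3.38 to 106, from 75 and 2 UMIs), and Hmga2 had 44 UMIs in F and 0 in I. Camp was 1.28-fold (1.24 to 1.33) and Fcnb 1.59-fold (1.47 to 1.73) higher in F, while S100a8 was 0.93-fold (0.91 to 0.94) and Stfa1 0.83-fold (0.81 to 0.85) of I's level, with intervals for counting error only. These few cells held much of the library's calprotectin and Gm5483 transcripts. In F, 5.48% of UMIs came from the chosen cells, but 75.1% of those of Gm5483, 67.2% of S100a9 and 47.0% of S100a8. In I, they gave 2.18% of all UMIs and 66.7%, 56.9% and 31.4% of these genes. The share was 15.7% and 9.17% for Elane and 11.4% and 4.60% for Mpo.

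The 4 Gata2-77-/- cells that met the rule were too few for a test between genotypes, which needed 10 in every library. The cell of B held 6490 UMIs, with 36 of Camp, 3 of Lcn2, 176 of S100a9, 131 of S100a8 and 83 of Elane. A cell of A with 5536 UMIs held 8 of Camp, 50 of S100a9 and 85 of S100a8, and another with 5669 held 3 of Camp, 2 of Lcn2, 88 of S100a9 and 127 of S100a8. The last cell of A, with 12732 UMIs, met the rule by 5 UMIs of Lcn2 alone. It had 0 of Camp, Fcnb and Gm5483, 1 of S100a9, 4 of S100a8 and 4 of Irf8, so the markers Camp, Fcnb and Gm5483 were all at 0 in it. No cell of the 4 held a UMI of Ngp, Stfa2l1, Stfa3 or Gata2.

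Summed over the 4 cells, S100a9 stood at 10353 CPM (95% Poisson interval 9241 to 11561), against 22112 and 19449 in the chosen cells of F and I. Elane stood at 7099 (6184 to 8111) against 9008 and 8679, Gm5483 at 559 (325 to 895) against 3334 and 3288, and Camp at 1545 (1135 to 2054) against 6221 and 4842. Without the cell that had no Camp UMI, which held 12732 of the UMIs, S100a9 stood at 17745 (15837 to 19820), S100a8 at 19384 (17387 to 21548), Elane at 11698 (10159 to 13405), Gm5483 at 961 (560 to 1538) and Camp at 2656 (1952 to 3532), so much of the gap to the wild-type cells in S100a9 lay in that 1 cell. That cell was left out after its values were seen. Intervals cover counting error only, and these values describe 4 cells, not a genotype. Outside these cells Camp stood at 0.833 and 0.151 CPM in A and B, and S100a9 at 58.3 and 39.1.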

How the data were processed

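Single-cell RNA was measured in 4 libraries, 2 per genotype. The deposited table holds UMI counts of 3624 genes in 9960 cells, 4980 per genotype, and its deposited name marks it as a subsample; how its genes were chosen is not given in the sources used here. It names no cells, so its columns were taken in the order of the deposited grouping file, which gives genotype and library letter, and gene symbols come from a deposited file of names. Library letters carry no sample number. Cell Ranger 2.0.2, Seurat 2.3.4 and mm10 are named, per the submitters' processing notes.

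UMIs were summed per library over the chosen and the other cells and scaled to CPM of the panel (Python 3.11.15). Library shares carry 95% Clopper-Pearson intervals and an exact permutation test. Intervals and the limits set by 3 counts at a count of 0 cover counting error only. TMM factors (edgeR 4.0.16) and DESeq2 1.42.0 size factors (R 4.3.3) were alternatives, as were other thresholds, thinning to 4346 UMIs, and leaving out libraries. No doublet caller was run; instead, cells over 2 times their library's median UMIs were left out as an alternative. The call rule was tested on simulated data with equal numbers of genes raised and lowered, so the effect of scaling was not tested. At 3-fold it recovered 100% of raised and 97% of lowered genes in the contrast with other cells. Between tertiles it recovered 83% and 86%. Coordinates are from GENCODE M21 and promoters from RefSeq (GRCm38.p6).

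Members and gene lists were chosen with earlier results of these data known. Genes named are those of the rule and its markers, the 12 largest ratios each way, up to 4 called genes per list (or its highest gene), 6 regulators, Kit and Cd34, and the 5 largest each way between tertiles and against each gate; other list members were named after their values were seen. A few list members are not reported here.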

Additional observations from a re-analysis of the deposited data

How the results depend on the processing

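The difference in share between genotypes, 4.68 percentage points, kept its direction under every alternative run, from 3.41 points after thinning to 5.94 with a threshold of 3 UMIs, and from 2.91 to 6.46 with a library left out; the design cannot give a p below 0.333. The counts of 112 genes higher and 300 lower became 192 and 142 with TMM factors, 192 and 148 with DESeq2 size factors, 235 and 821 at 1.5-fold, and 59 and 101 at 3-fold. The lower count was 191 with a threshold of 3 UMIs and 180 at a minimum of 50 CPM. With a library left out, the counts ran from 122 to 137 higher and from 380 to 478 lower. Between tertiles, 13 higher and 37 lower became 6 and 8 with the cells cut at the median, 42 and 209 at 1.5-fold, and 37 to 106 and 145 to 353 with a library left out. Against the Cebpe gate the counts ran from 59 to 78 higher and from 174 to 285 lower with a library left out, and against the eosinophil-gene gate they were 99 higher and from 190 to 210 lower; leaving out libraries there was chosen after seeing the data. A call from 1 library does not need the other to pass. Of 408 log2 ratios of 68 named genes under the alternatives, 283 moved by less than 1 SD, 125 by more, and 0 changed sign. The test between genotypes within the chosen cells, with its alternatives, was not run, since A and B held 3 and 1 of them. No paired analysis was possible because the library letters carry no sample number.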
